A study of Mus musculus with 12 samples.

Results

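The genes described here encode 10 growth factor and matrix receptors of fibroblasts: Pdgfra, Pdgfrb, Fgfr1, Egfr, Igf1r, Insr, Met, Ddr2, Tgfbr1 and Tgfbr2. They were taken by gene symbol from a table of 17419 genes, and each symbol matched 1 row. RNA came from NIH-3T3, an immortalised mouse fibroblast line of wild-type genotype, grown in DMEM with NCS (the serum supplement as the labels name it) and antibiotics. Cells were left without label (no4sU) or were given 800 µM 4-thiouridine (4sU), a uridine analogue that is built into newly made RNA, for 15, 30, 60, 90 or 120 min. Each of the 6 groups had 2 libraries, A and B, giving 12 libraries, 10 of them labelled. All of them come from a single cell line, and the labels do not say whether A and B were separate cultures, so the p-values below measure only the spread between these libraries, which may be technical. In SLAM-seq, iodoacetamide makes 4sU positions appear as C in the reads, and these conversions give the new-to-total ratio (NTR), the part of the RNA of a gene that was made while the label was present. The series title names the bias that the length of labelling brings into quantification as the question.

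Many receptor tyrosine kinases, though not all of those described here, pair up when a growth factor binds. They phosphorylate each other and recruit adaptors that start Ras-MAPK and PI3K-Akt signalling. The TGF-beta receptors are serine/threonine kinases in which the type II receptor (Tgfbr2) activates the type I receptor (Tgfbr1), which then phosphorylates Smad proteins. In fibroblasts PDGF and FGF are known for driving division and migration, TGF-beta for matrix production, and DDR2 for sensing fibrillar collagen.

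The libraries held between 9917026 and 13739380 counted reads, and each of the 10 receptor genes averaged 100 or more reads, as 9065 genes of the table did. The labelled cell type matched its markers: 15 of 15 fibroblast markers were in the table, 14 of them with an average of 100 reads or more, and they summed to 18517 to 22700 CPM (counts scaled to a common library size) per library. No gene of the endothelial, epithelial, blood, muscle or neural lists reached a mean count of 100. The highest sums of these lists were 9.45 CPM for the neural list, almost all of it Tubb3, and 7.34 CPM for the blood list, almost all of it Cd68.

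Sequences are shown for the motif TATTTAT, the core of AU-rich elements, which are known for shortening the life of many growth-related mRNAs. The 3′ UTR of 1 transcript per gene was searched on the transcript's own strand in GENCODE M21 (build GRCm38, not stated to be the build of the authors). TATTTAT occurred in 4 of the 10 receptor genes (Egfr, Insr, Met and Ddr2), and in 31.6% of the 8914 genes that reached that count and had a readable 3′ UTR. Windows of 29 bases around the match are given for 3 of them, chosen because they span the NTR range of the set, with the motif in capitals. They lie in the 3′ UTR exons at chr11:16916288-16916316 on the plus strand (Egfr), chr6:17573785-17573813 on the plus strand (Met) and chr1:169972358-169972386 on the minus strand (Ddr2).
Egfr: agttacaataaTATTTATgtttgtttggg
Met: atcatgttctcTATTTATgactcttccta
Ddr2: ctattttccttTATTTATtccctgtaagt
The shorter motif ATTTA, which every TATTTAT contains, was found in 9 of the 10 genes and in 71.4% of all these genes. Igf1r held 13 copies, Egfr 12, Ddr2 11, Insr 7, Pdgfra, Tgfbr1 and Met 5 each, Fgfr1 3, Pdgfrb 1 and Tgfbr2 0. The transcript searched for Tgfbr2 has 3476 bases against a deposited gene length of 8092, so its 0 covers only that 3′ UTR of 1449 bases. The 3′ UTRs of the 10 genes were long, with a median of 3628 bases against 1186 bases over all genes. Their median density of ATTTA was 1.64 per kilobase against 1.40. A match describes letters in the window and is no evidence of a working element.

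Transcript levels differed more between the receptors than between libraries of a receptor. Levels between genes are given as RPKM, CPM divided by the deposited gene length in kilobases, with TMM-scaled library sizes. Fgfr1, the receptor for fibroblast growth factors, had the highest level, 91.8 ± 3.26 RPKM (SD, n = 12 libraries; range 86.9 to 98.0). It lies on chr8:25513654-25575718 (plus strand) and stood at the 92.4th percentile of the 9065 genes. Ddr2, the collagen receptor, followed at 44.4 ± 2.72 RPKM (37.3 to 48.3; chr1:169972307-170110762, minus strand), a level exceeded 2.07-fold by that of Fgfr1.

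The PDGF receptors bind overlapping sets of PDGF dimers. Pdgfra stood at 35.4 ± 2.88 RPKM (31.0 to 40.2; chr5:75152292-75198215, plus strand). Pdgfrb had 20.6 ± 1.08 RPKM (18.6 to 21.7; chr18:61045150-61085061, plus strand). The ratio of Pdgfra to Pdgfrb was 1.72 ± 0.190 over the 12 libraries, with 1.63 and 2.00 after 15 min of label and 1.43 and 1.56 after 120 min. Met, the receptor for hepatocyte growth factor, lay between them at 25.4 ± 1.58 RPKM (22.2 to 28.2; chr6:17463800-17573980, plus strand).

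The insulin family receptors bind IGF1 or insulin and can form hybrids. Igf1r had 16.6 ± 0.738 RPKM (15.3 to 17.4; chr7:67952827-68233668, plus strand) and Insr 4.73 ± 0.343 RPKM (4.06 to 5.30; chr8:3122061-3279617, minus strand). The ratio of Igf1r to Insr stayed between 3.24 and 3.79 in the 12 libraries.

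Of the TGF-beta receptors, Tgfbr2 had 10.1 ± 0.330 RPKM (9.30 to 10.5; chr9:116084293-116175360, minus strand). Tgfbr1 had 6.43 ± 0.782 RPKM (4.91 to 7.18; chr4:47353222-47414931, plus strand). The ratio of Tgfbr2 to Tgfbr1 was 1.41 and 1.56 after 15 min and 2.06 and 1.64 after 120 min. The deposited length of Tgfbr2, 8092 bases, exceeds that of the annotated transcript used here (3476 bases), so its level per length depends on which one holds.

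Egfr, the receptor for EGF and related ligands, had the lowest level at 1.14 ± 0.133 RPKM (0.920 to 1.38; chr11:16752203-16918158, plus strand), with counts of 101 to 187 per library. Its level was at the 0.188th percentile of the 9065 genes, and 4.14-fold below that of Insr. Those genes were kept for a mean count of at least 100, and Egfr averaged 134 over a length of 10208 bases. Its low rank therefore reflects that filter, and genes of the table below that count are not ranked. In all 12 libraries the 10 genes stood in the same order. Ranges over the libraries nevertheless overlapped for 2 neighbouring pairs, Ddr2 with Pdgfra and Tgfbr1 with Insr. Annotated antisense genes overlap several receptor loci, and no source used here says whether counting used strand. The 3 of them that were in the table, at Pdgfra, Egfr and Ddr2, had mean counts of 0.417, 0.417 and 1.08.

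**Figure D1:**
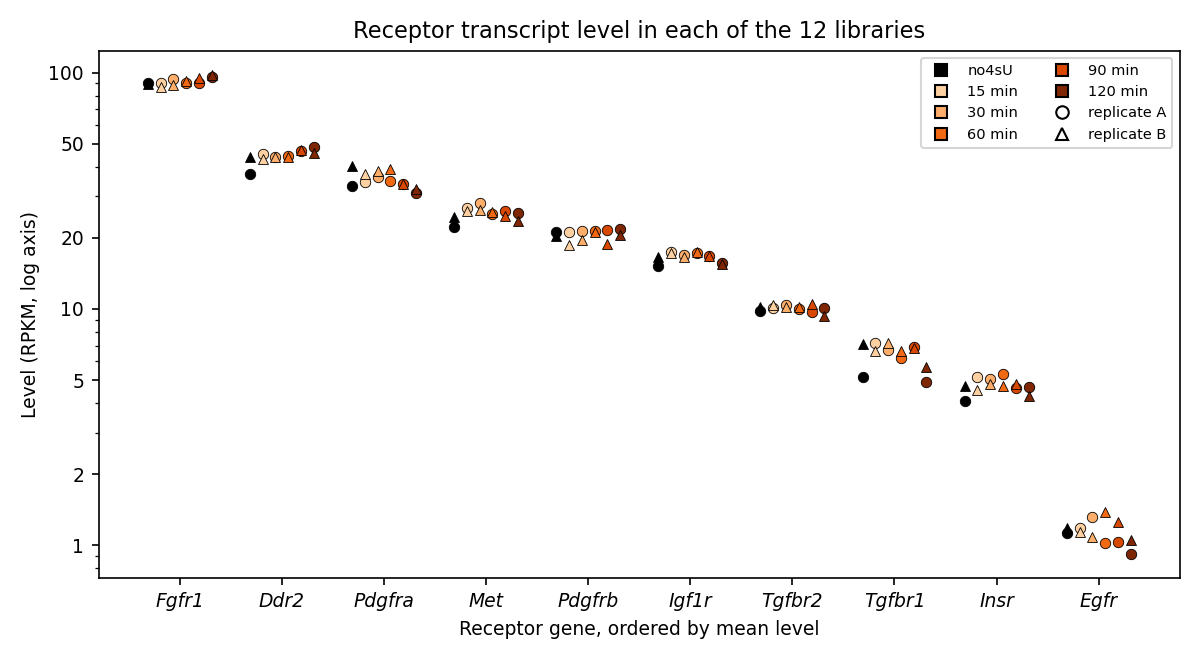
Level of each receptor gene in RPKM (log axis) in each of the 12 libraries, with genes ordered by mean level, groups by colour and replicates by symbol. Fgfr1 sits between 86.9 and 98.0 RPKM, Egfr between 0.920 and 1.38 RPKM, and only the ranges of Ddr2 and Pdgfra and of Tgfbr1 and Insr overlap between neighbours.

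The share of newly made RNA also differed widely between the receptors. At 120 min the NTR of Pdgfra was 66.2% in library A and 64.8% in library B (65.5 ± 1.00%, SD, n = 2), that of Fgfr1 30.9 ± 0.481% and that of Ddr2 16.7 ± 0.375%. Over the 10 genes the median NTR was 47.1 ± 1.52%, against 35.4 ± 0.523% over the 9065 genes, and 7 of the 10 lay above the median of all genes in both libraries. At 15 min the median of the 10 genes was the lower, 0.77 ± 0.074% against 1.005 ± 0.474% for all genes. At 30 min the medians were 5.60 ± 0.286% and 5.21 ± 0.120%. They were 18.8 ± 2.27% and 15.5 ± 0.410% at 60 min, and 32.1 ± 1.61% and 24.4 ± 1.40% at 90 min. With 2 libraries against 2, no two-sided exact permutation p can fall below 0.33, so durations were not tested, and genes were compared through the deposited 90% interval of each library.

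In the PDGF receptor pair, Pdgfra showed an NTR of 2.10% and 1.03% after 15 min, 10.7% and 8.08% after 30 min, 26.2% and 31.4% after 60 min, and 49.5% and 49.0% after 90 min. Pdgfrb showed 1.89% and 0.700%, 5.56% and 6.84%, 22.1% and 22.1%, and 39.5% and 35.7% at the same times. It reached 54.1% and 51.9% at 120 min. From 90 min on, Pdgfra was higher than Pdgfrb in every library and their 90% intervals did not overlap.

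The TGF-beta receptors had the opposite order to their levels. Tgfbr1, the less abundant of the pair, reached 55.4% and 61.3% at 120 min, and Tgfbr2 reached 40.8% and 39.7%. The intervals of Tgfbr1 were 49.4 to 61.3% and 55.8 to 66.7%, and those of Tgfbr2 37.3 to 44.5% and 36.2 to 43.4%, so the pair did not overlap in either library. Igf1r (49.9% and 47.9%) and Insr (46.5% and 44.2%) lay close together at 120 min, with overlapping intervals in both libraries.

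Egfr stood beside Pdgfra at 61.4% and 60.5%, but its low count gave wide intervals, 49.6 to 72.9% and 49.9 to 71.0%. At 60 min its libraries differed, with 37.4% in A and 21.2% in B. Met was the gene whose 120 min libraries lay furthest apart, at 35.2% (33.0 to 37.5%) and 28.5% (26.4 to 30.7%). These intervals did not overlap, although the 90 min libraries had 23.6% and 23.9%.

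Fgfr1 had 11.9% and 13.2% after 60 min and 31.2% and 30.5% after 120 min. Ddr2 had 0.400% and 0.820% after 15 min, 2.43% and 3.22% after 30 min, 7.57% and 7.36% after 60 min, 12.2% and 10.8% after 90 min and 16.9% and 16.4% after 120 min. Ddr2 was thus below the median of all genes from 30 min on, and its intervals at 120 min (15.8 to 18.1% and 15.4 to 17.5%) were separate from those of Fgfr1. Between neighbours in the order at 120 min, intervals overlapped in both libraries for Pdgfra and Egfr, Egfr and Tgfbr1, Pdgfrb and Igf1r, Igf1r and Insr, and Insr and Tgfbr2. They overlapped in 1 of 2 libraries for Tgfbr1 and Pdgfrb, Tgfbr2 and Met, and Met and Fgfr1.

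Genes with and without the motif shown above were found across this order. TATTTAT is present in Egfr (61.0 ± 0.665% at 120 min), Insr (45.4 ± 1.65%), Met (31.8 ± 4.73%) and Ddr2. It is absent from the searched 3′ UTR of Pdgfra, which had the highest NTR, and of Tgfbr1, Pdgfrb, Igf1r, Tgfbr2 and Fgfr1. Over all genes the median NTR at 120 min was 31.2% for the 6096 genes without it, 42.1% for the 1846 genes with 1 copy and 52.1% for the 972 genes with 2 or more, with wide overlap (quartiles 18.2 to 53.3% without it and 31.7 to 78.7% with 2 or more).

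**Figure D2:**
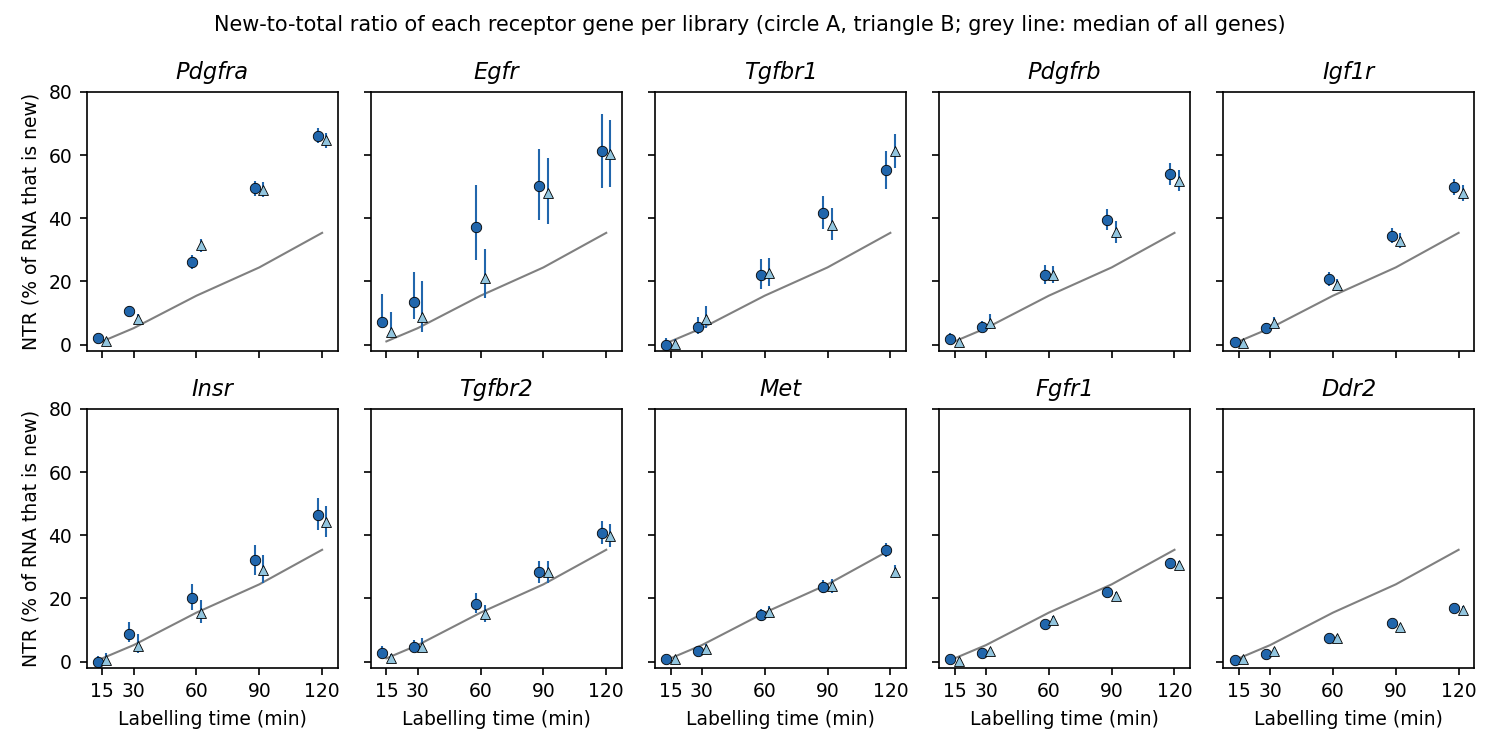
NTR in percent against labelling time in min for each receptor gene, ordered by NTR at 120 min. Symbols are libraries (circle A, triangle B, drawn slightly apart), vertical lines the deposited 90% interval, and the grey line the median of the 9065 genes. Pdgfra ends at 65.5% and Ddr2 at 16.7%, on either side of the grey line at 35.4%.

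Genes with a like NTR were sought for both ends of the order over the 10 labelled libraries, among 9064 other genes. Closest to Pdgfra by mean absolute difference were Helz (1.20 percentage points), Zfp395 (1.21) and Dgcr8 (1.32). Closest to Ddr2 were Nono (0.339), Vim, the fibroblast filament protein vimentin (0.370), and Tmem234 (0.383).

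Under first-order decay with no change in level, an NTR corresponds to an apparent half-life. At 120 min it was 78.3 ± 2.14 min for Pdgfra, 88.4 ± 1.60 min for Egfr, 95.4 ± 10.9 min for Tgfbr1, 110 ± 4.77 min for Pdgfrb, 124 ± 5.06 min for Igf1r, 138 ± 6.87 min for Insr and 161 ± 4.08 min for Tgfbr2. It was 220 ± 39.7 min for Met, 225 ± 4.25 min for Fgfr1 and 456 ± 11.3 min for Ddr2. The median of the 10 genes was 131 ± 5.96 min, against 198 ± 5.41 min for all genes. These values depend on the duration: the median of the 10 genes was 202 ± 28.5 min at 60 min and 162 ± 10.3 min at 90 min. For all genes it was 247 ± 7.22 min and 224 ± 14.9 min. At 30 min the medians were alike, 367 ± 10.7 min for the 10 genes and 368 ± 11.4 min for all genes. A line through the transformed NTR from 30 to 120 min, which allows a delay before label enters RNA, gave 64.3 min for Pdgfra, 186 min for Fgfr1 and 411 min for Ddr2, with delays of 14.1 to 27.2 min over the 10 genes.

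Each level was split into old RNA, RPKM × (1 − NTR), and new RNA, RPKM × NTR. Both are computed from the same NTR, so they restate its spread in absolute terms and are no separate evidence. Old Pdgfra RNA was 33.6 and 36.8 RPKM after 15 min and 10.5 and 11.3 RPKM after 120 min, or 31.0% of its 15 min mean. Old Tgfbr1 RNA fell to 31.8%, from 7.15 and 6.67 RPKM to 2.19 and 2.19 RPKM. Old Ddr2 RNA was 44.9 and 42.7 RPKM after 15 min and 40.1 and 38.1 RPKM after 120 min, or 89.3%. The other genes kept 35.1% (Egfr), 46.3% (Igf1r), 50.7% (Insr), 50.8% (Pdgfrb), 57.8% (Tgfbr2), 63.5% (Met) and 76.0% (Fgfr1). These are values without a test.

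Ranked by new RNA at 120 min the order of the receptors differed from that by level. Fgfr1 still led with 30.0 ± 0.0387 RPKM of new RNA. Pdgfra came next with 20.7 ± 0.221 RPKM and then Pdgfrb with 11.2 ± 0.756 RPKM, both above Ddr2 at 7.83 ± 0.502 RPKM, whose level was higher than either. Pdgfra made up 12.3% of the summed level of the 10 genes and 21.8% of their summed new RNA, while Ddr2 made up 18.2% and 8.26%. New RNA of Met (7.84 ± 1.61 RPKM) and Igf1r (7.61 ± 0.273 RPKM) differed from that of Ddr2 by less than the SD. Tgfbr2 had 3.91 ± 0.309 RPKM of new RNA, Tgfbr1 3.10 ± 0.534, Insr 2.04 ± 0.202 and Egfr 0.600 ± 0.0499.

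**Figure D3:**
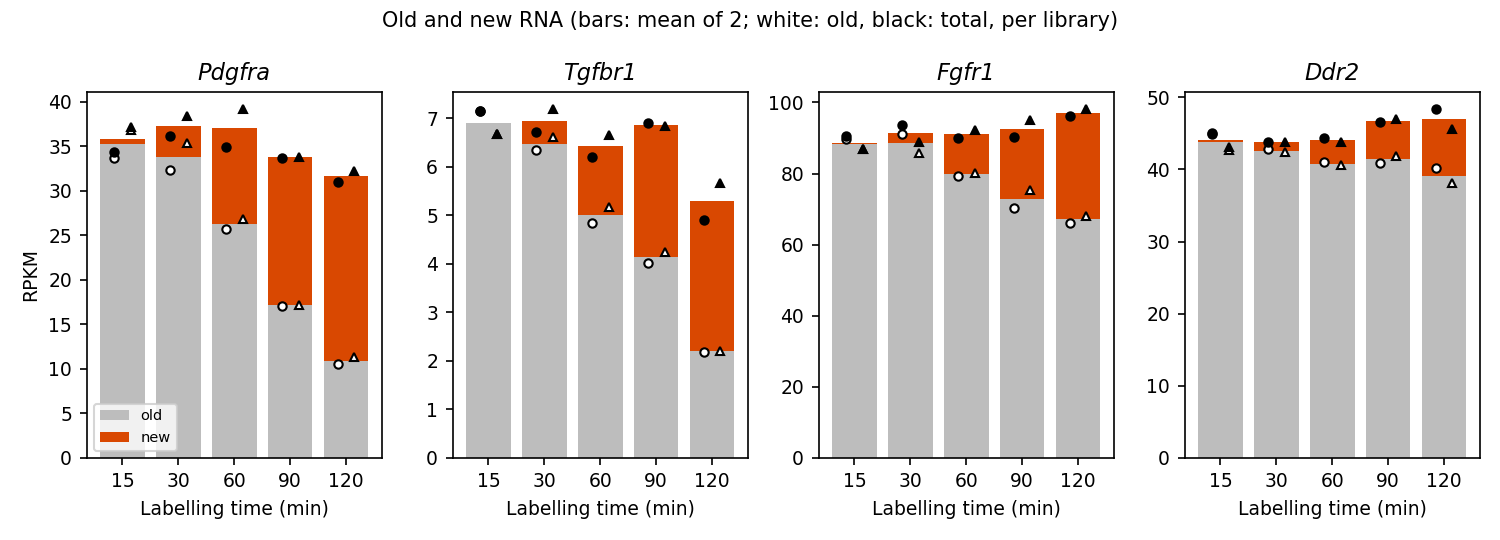
Old (grey) and new (orange) RNA in RPKM against labelling time in min for 4 receptor genes, with bars from 0 for the mean of 2 libraries. White symbols give old RNA and black symbols the total per library (circle A, triangle B). Old Pdgfra RNA shrank to 31.0% of its 15 min value and old Ddr2 RNA to 89.3%.

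The counts themselves were then compared between durations with edgeR's quasi-likelihood test, a gene being called at a Benjamini-Hochberg adjusted p below 0.05 over all tested genes. In these bulk libraries, fewer cells with a transcript and less RNA per cell cannot be told apart. Against no4sU, 0 of the 10 receptor genes were called by edgeR at 15, 30, 60 or 90 min, where 0.0%, 0.0%, 0.0173% and 1.39% of the 11564 tested genes were. At an unadjusted p below 0.05, 2, 1, 1 and 1 of the 10 genes passed at these durations. Of the 11564 tested genes, 618, 670, 895 and 1869 passed that threshold. DESeq2 called 0 receptor genes at each duration. All of these comparisons share the same pair of no4sU libraries, which differed from each other for several receptors. Library A was below B for Tgfbr1 (29.7 and 41.1 CPM), Ddr2 (321 and 378 CPM), Pdgfra (227 and 275 CPM) and Met (151 and 166 CPM). Without no4sU library B, 4, 3, 5 and 3 receptor genes rose at 15, 30, 60 and 90 min, where 7.67%, 7.65%, 7.30% and 7.37% of all genes rose. Without A 1 gene, Pdgfra, fell at 90 min, where 12.3% of all genes were called in either direction. The part of these libraries in the comparisons was not tested beyond this.

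At 120 min against no4sU, Ddr2 was the receptor gene called, where 14.2% of all genes were (5.43% higher, 8.78% lower). It had 321 and 378 CPM without label and 415 and 391 CPM at 120 min, with no overlap. Its log2 fold change was 0.20 ± 0.0622 (SE; edgeR adjusted p = 0.0330). The call was lost without no4sU library A (log2 0.09, adjusted p = 0.121), without 120 min library A (0.17, 0.217) or B (0.25, 0.0845), and when libraries were scaled by their size alone (0.14, 0.138). Pdgfra had a log2 fold change of -0.22 ± 0.0749 with an adjusted p of 0.0544 in edgeR. The medians were -0.01 for the 10 genes and 0.01 for all genes.

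At 120 min against 15 min, Tgfbr1 was the receptor gene called. It had 41.1 and 38.4 CPM after 15 min and 28.3 and 32.6 CPM after 120 min, with no overlap, and a log2 fold change of -0.38 ± 0.115 (edgeR adjusted p = 0.0263). Of all genes, 19.3% were called here, 7.93% higher and 11.3% lower. Its call was lost when any of the 4 libraries was left out: the adjusted p was 0.184 without 15 min A, 0.0712 without 15 min B, 0.221 without 120 min A and 0.0560 without 120 min B, with log2 fold changes from -0.50 to -0.28. The unlabelled libraries, at 29.7 and 41.1 CPM, spanned nearly the whole range of both groups. Not called were Igf1r (-0.15 ± 0.0548, adjusted p = 0.0561), Fgfr1 (0.13 ± 0.0502, 0.0758), Pdgfra (-0.18 ± 0.0753, 0.102), Egfr (-0.23 ± 0.156, 0.318), Insr (-0.11 ± 0.0914, 0.403), Met (-0.11 ± 0.0624, 0.218), Ddr2 (0.09 ± 0.0622, 0.323), Pdgfrb (0.09 ± 0.0747, 0.415) and Tgfbr2 (-0.08 ± 0.0657, 0.445). The median was -0.11 for the 10 genes and 0.01 for all genes.

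A linear trend over the 10 labelled libraries, with the coefficient as log2 change per hour of labelling, called 6 of the 10 genes by edgeR, 4 lower and 2 higher. Of the 11526 genes tested for it, 37.8% were called, 19.5% lower and 18.3% higher. Tgfbr1 fell by 0.17 ± 0.0445 per hour (adjusted p = 0.00177) and Pdgfra by 0.12 ± 0.0258 (adjusted p = 0.000293). Pdgfra had 235 and 254 CPM after 15 min, 247 and 263 after 30 min, 238 and 267 after 60 min, 230 and 231 after 90 min, and 212 and 220 after 120 min, so both 120 min libraries were below all other labelled libraries. Met fell by 0.08 ± 0.0234 per hour (edgeR adjusted p = 0.00728), from 183 and 178 CPM at 15 min to 174 and 160 CPM at 120 min. Its unlabelled libraries held 151 and 166 CPM, and at 120 min against no4sU its log2 fold change was 0.07 ± 0.0626 (not called). Igf1r fell by 0.07 ± 0.0218 per hour (adjusted p = 0.00888). Its libraries held 190 to 198 CPM from 15 to 90 min and 178 and 177 CPM at 120 min. Without label it had 174 and 190 CPM, a range that holds both 120 min values (log2 -0.04 ± 0.0548 against no4sU, not called).

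The genes that rose were the most abundant pair. Ddr2 rose by 0.06 ± 0.0192 per hour (edgeR adjusted p = 0.00986), with 387 and 370 CPM after 15 min, 400 and 404 CPM after 90 min and 415 and 391 CPM after 120 min. Fgfr1 rose by 0.06 ± 0.0194 per hour (edgeR adjusted p = 0.0110), from 456 and 438 CPM at 15 min to 484 and 494 CPM at 120 min. With libraries scaled by their size alone, the rises of Ddr2 and Fgfr1 were no longer called (0.03 for each, adjusted p = 0.267 and 0.287), while falls of Insr (-0.11, 0.0271) and Tgfbr2 (-0.08, 0.0248) were. Egfr (-0.13 ± 0.0711, adjusted p = 0.155), Insr (-0.07 ± 0.0375, 0.131), Tgfbr2 (-0.04 ± 0.0276, 0.211) and Pdgfrb (0.03 ± 0.0299, 0.440) did not pass the test under TMM. With libraries scaled by size alone, the value of Pdgfrb was below 0.

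The calls depended on the 120 min libraries. Leaving out 120 min library A left 3 genes called (Fgfr1, Met and Pdgfra), leaving out library B left 3 (Ddr2, Pdgfra and Tgfbr1), where 30.0% and 29.3% of all genes were called. Without both, 0 of 10 were called in edgeR, where 14.4% of all genes were. At an unadjusted p below 0.05, 3 of the 10 passed, and no share of all genes was taken at that threshold. In that fit of 8 libraries the slopes of Ddr2 (0.060, adjusted p = 0.129) and Met (-0.077, 0.115) stayed close to those with all labelled libraries. Those of Tgfbr1 (-0.037, 0.727), Igf1r (-0.027, 0.621), Fgfr1 (0.034, 0.447) and Pdgfra (-0.076, 0.168) were nearer to 0. Pdgfra was the gene called under either single omission.

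The direction of the trend followed the NTR among the receptors as among all genes. Spearman's rho between the change per hour and the NTR at 120 min was -0.745 over the 10 receptor genes and -0.778 over the 9065 genes. This is a description across genes that share the same libraries. Ddr2 and Fgfr1, with the lowest NTRs, had positive slopes, and Met, with an NTR close to that of Fgfr1, had a negative one. Pdgfrb, with an NTR of 53.0 ± 1.53%, had a slope of 0.03, above the upper quartile of the genes in the NTR deciles on either side of it. In an alternative, the new RNA of each library from 30 min on was scaled up. The scaling was set so that the count change against the shortest labelling had no rank relation with the NTR over genes. This took a missing share of 34.1 and 35.5% in the 120 min libraries. The relation between change and NTR is thus removed by construction, and calls lost under this scaling are in part built in. With this scaling, 2 of 10 genes were called: Met (-0.10, adjusted p = 0.00317) and Pdgfrb (0.09, adjusted p = 0.0470). Of all genes, 13.0% were called in that setting, a share close to that of the receptors. The slopes of Pdgfra (-0.02, adjusted p = 0.610) and Tgfbr1 (-0.11, 0.105) were no longer called, and that of Ddr2 became -0.02 (0.538).

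**Figure D4:**
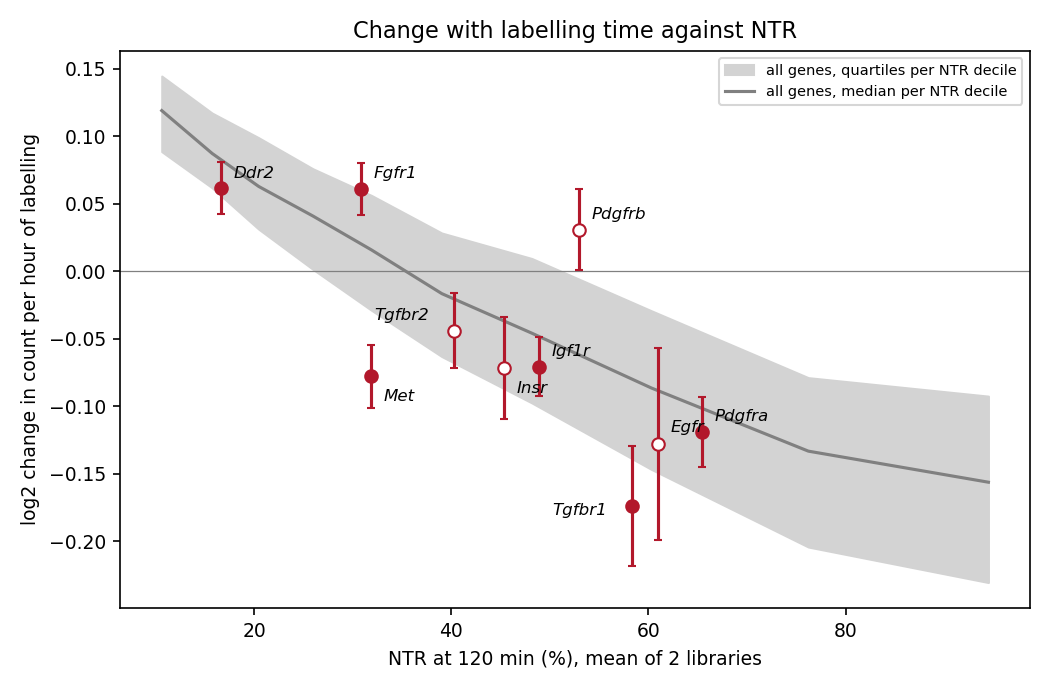
Change in count per hour of labelling (log2, ± SE) against NTR at 120 min in percent for the 10 receptor genes (filled where the adjusted p is below 0.05). The grey line and band give the median and quartiles of all genes in 10 bins of NTR. Tgfbr1 has the most negative value, -0.17, and Ddr2 and Fgfr1 lie at 0.06.

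The wider pathway was read from a list of 130 ligands, related receptors, adaptors, negative regulators and binding proteins, of which 111 were tested. At 120 min against 15 min, 10 of the 111 rose and 24 fell in edgeR, or 30.6% against 19.3% of all genes, with a median log2 fold change of -0.09 against 0.01. At 120 min against no4sU, 14 rose and 16 fell, or 27.0% against 14.2% of all genes. With libraries scaled by size alone, 16.3% of all genes were called against no4sU (1.76% higher) and 19.8% against 15 min (3.68% higher). The pathway splits were then 7 higher and 30 lower against no4sU, and 5 higher and 37 lower against 15 min. These counts depend on the libraries: they changed when 1 library was left out. The share of all genes called also changed when a no4sU or 120 min library was left out, so the change does not single out the pathway. With new RNA scaled up the pathway counts were 2 against 15 min and 0 against no4sU, where 2.11% and 1.66% of all genes were called.

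By role, the extracellular binding proteins moved upward against 15 min, with 5 of 13 rising, 0 falling and a median of 0.22. Of all genes, 7.93% rose and 11.3% fell in this comparison. Igfbp7, a secreted IGF-binding protein, rose from 119 and 127 CPM to 156 and 171 CPM (log2 0.41 ± 0.0781, edgeR adjusted p = 0.00140). Ltbp2 (0.31 ± 0.0617) and Ltbp3 (0.22 ± 0.0568), of the family of latent TGF-beta binding proteins, and Igfbp6 (0.24 ± 0.0636), which binds IGF2, also rose. The fifth was Sdc2, a cell surface heparan sulfate proteoglycan (0.22 ± 0.0595). Their NTRs at 120 min were low, at 5.93% for Igfbp7, 11.8% for Ltbp2, 9.75% for Igfbp6 and 15.3% for Ltbp3. Under scaling by library size alone the median of all genes in this comparison moved from 0.01 to -0.05 and the share of lower calls from 58.8% to 81.4%. The medians of the receptors and of every role kept their sign under that scaling. With new RNA scaled up the signs were kept too, but the medians shrank. They were then -0.062 for the receptors, -0.012 for adaptors, -0.011 for ligands, -0.025 for negative regulators and -0.0051 for other receptors. The median of all genes was 0.0036. The binding proteins then had a median of 0.05 and 0 of 13 called (2 at an unadjusted p below 0.05).

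Negative regulators and receptor turnover genes had 2 of 30 higher and 11 lower, with a median of -0.16, beside 7.93% higher and 11.3% lower of all genes. Lrig2, of the leucine-rich repeat family that regulates receptor tyrosine kinases, fell from 23.0 and 23.1 CPM to 14.2 and 12.4 CPM (log2 -0.80 ± 0.148, edgeR adjusted p = 0.00122), and Smurf2, a ubiquitin ligase of TGF-beta signalling, fell by 0.41 ± 0.0665. The members that rose were the ubiquitin ligase Nedd4 (0.20 ± 0.0550) and the late endosomal GTPase Rab7 (0.16 ± 0.0476). Adaptors and signal carriers had 2 of 37 higher and 10 lower (median -0.13). Sos2, a Ras exchange factor, fell by 0.50 ± 0.108, and Frs2, the docking adaptor of FGF receptors, fell by 0.40 ± 0.0827. Akt1, the kinase downstream of PI3K, rose by 0.23 ± 0.0518 and had an NTR of 16.1%. Pik3r2, a regulatory subunit of PI3K, rose by 0.21 ± 0.0688.

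Among other receptors of these families 1 of 15 rose and 2 fell (median -0.06), including Acvr2a, an activin receptor, which fell by 0.47 ± 0.134. The other 2 were Fgfr2 (-0.23 ± 0.0723), which fell, and Axl, the receptor for Gas6 (0.17 ± 0.0465), which rose. Ligands had 0 of 16 higher and 1 lower, Fgf7 (-0.25 ± 0.0762, median of the role -0.12). For both roles the shares of all genes were 7.93% higher and 11.3% lower. With libraries scaled by size alone, 19.8% of all genes were called, 3.68% higher. Of the 15 other receptors 0 then rose and 6 fell, and of the 16 ligands 0 rose and 4 fell. For binding proteins the split was then 4 higher and 1 lower, for negative regulators 0 and 13, and for adaptors 1 and 13. Sdc2, Nedd4, Rab7, Pik3r2, Fgfr2, Axl and Fgf7 were named after their values were seen, to complete small counts. The NTR at 120 min of the 5 largest falls was 91.8% for Lrig2, 88.1% for Sos2, 80.7% for Frs2, 77.4% for Acvr2a and 62.6% for Smurf2. By role, the median NTR at 120 min was 59.8% for negative regulators, 48.7% for other receptors, 44.7% for adaptors, 41.3% for ligands and 15.3% for binding proteins. The 10 receptors, at 47.1%, lay between the adaptors and the other receptors.

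**Figure D5:**
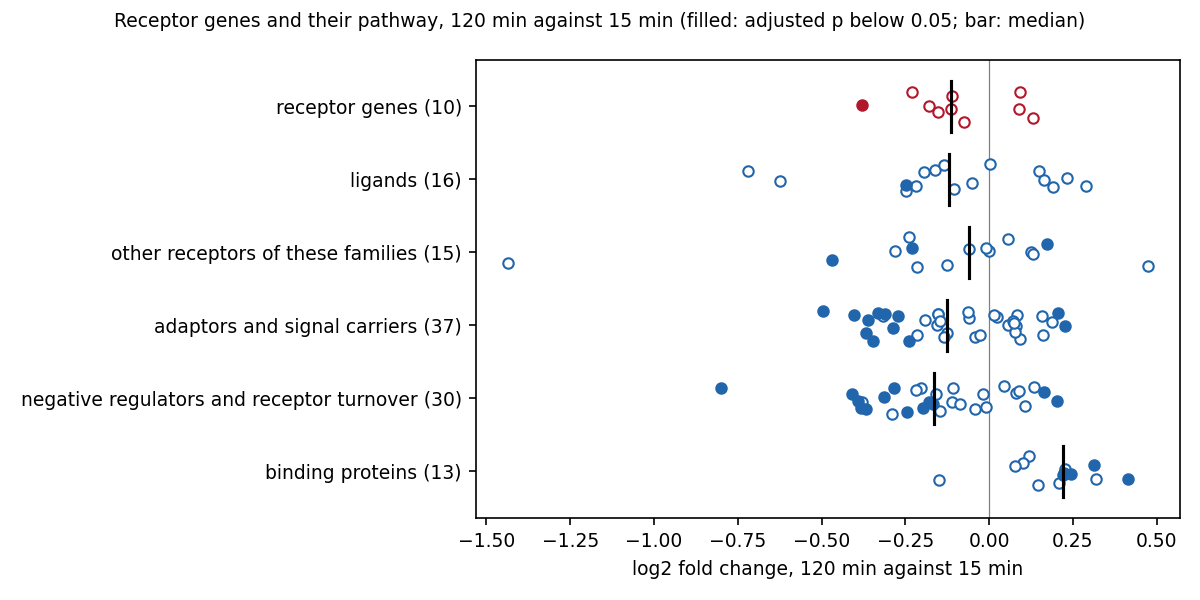
Log2 fold change at 120 min against 15 min for the 10 receptor genes (red) and the tested pathway genes by role (blue), with filled points past the threshold and a black bar at each median. Binding proteins have a median of 0.22, negative regulators of -0.16 and the receptor genes of -0.11.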

How the data were processed

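Libraries were grouped by the sample titles. The labels' protocols state 4sU labelling, iodoacetamide treatment and purification of RNA. The submitters' processing notes name cutadapt, Bowtie2 2.3.0 and STAR 2.7.10b. No source used here names the build, the annotation, the counting tool or the use of strand. The authors deposited estimated counts per gene and library, of which 20.4% were not whole (tolerance 1e-06), and they were rounded for the tests. Per the file headers, the deposited NTR is a fraction and has a posterior maximum (used here), a mean, and quantiles at 0.05 and 0.95. The deposited alpha and beta of the NTR are each a score and were not used, and 0 columns belonged to other samples.

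Counts were fitted with edgeR 4.0.16 in R 4.3.3 (filterByExpr, TMM factors 0.970 to 1.02, quasi-likelihood, no block), in 1 fit of all 12 libraries (11564 genes; common biological coefficient of variation 4.44%) or, for the trend, of the 10 labelled libraries (11526 genes). P-values were adjusted over all tested genes. DESeq2 1.42.0 was an alternative, beside other scalings, no filter, a replicate block and leaving out libraries. Scripts were tested on simulated data. CPM and RPKM used TMM library sizes and the deposited gene length. NTR values were compared over the genes averaging 100 or more reads, and half-lives are ln 2 × time / −ln(1 − NTR) for an NTR between 1 and 99%. Intervals and errors cover these libraries and, for the NTR, the deposited model only. Samples with the same letter did not deviate together (correlations -0.0421 to 0.0684).

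The receptors, the pathway and marker lists and the tests were chosen with earlier results of these data known. Every receptor is named. Of the pathway list, the 5 largest rises and 5 largest falls past the threshold at 120 min against 15 min are named where they averaged 100 or more reads. Locations and 3′ UTRs come from GENCODE M21 (GRCm38), and Python 3.11.15 with numpy 2.4.6, pandas 2.3.3 and matplotlib 3.10.9 was used.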

Additional observations from a re-analysis of the deposited data

How the results depend on the processing

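Against no4sU, leaving out 1 library gave counts of called receptor genes (edgeR) from 0 to 4 for 15 min, 0 to 3 for 30 min, 0 to 5 for 60 min, 0 to 3 for 90 min and 0 to 2 for 120 min, where all libraries gave 0, 0, 0, 0 and 1. Without a filter on low counts it was 1 for 90 min and 2 for 120 min. With the replicate block, 2 genes were called both at 120 min against no4sU (Pdgfra and Ddr2) and at 120 min against 15 min (Pdgfra and Tgfbr1). Libraries with the same letter showed little shared deviation over the tested genes, and whether the letters pair the libraries is not stated. Against 15 min the count was 1, with 3 under scaling by library size alone, 2 without a filter, 5 with only the 2 groups compared and 0 in every omission of 1 library (2 or 3 at an unadjusted p below 0.05). With new RNA scaled up it was 0 in both 120 min comparisons (0 and 3 unadjusted). With only the 2 groups compared it was 0 against no4sU (2 unadjusted). Of all genes, 19.3% were called against 15 min, 19.8% under library size alone and 2.11% with new RNA scaled up. Against no4sU at 120 min these shares were 14.2%, 16.3% and 1.66%. The other receptor counts here, and pathway counts below, stand without such a share and do not single out these genes. A lone library left in a group was assumed to vary like the others. The trend count of 6 became 2 with new RNA scaled up, 0 without both 120 min libraries (chosen after seeing the data), 0 for 60, 90 and 120 min against 15 and 30 min (3 unadjusted in each) and 3 to 7 without 1 library.

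The pathway count of 30 against no4sU became 0 with new RNA scaled up (18 unadjusted), 2 with only the 2 groups compared, and 6 to 60 without 1 library. The count of 34 against 15 min became 2, 59, and 11 to 20. Scaling by library size alone moved the share of lower calls among all genes from 61.8% to 89.2% at 120 min against no4sU and from 51.6% to 72.1% in the trend. Of the log2 fold changes of single receptors under the alternatives, 186 kept direction and side of the threshold, 13 gained a call, 11 lost it and 10 turned direction, none of these 10 called. Those that turned were Ddr2 against 15 min (-0.051) and Igf1r against no4sU (0.032) with new RNA scaled up, and Pdgfrb (-0.041) and Insr (-0.052) against no4sU under library size. Without 1 library, values against no4sU ranged from -0.0059 to 0.064 for Pdgfrb, -0.099 to 0.027 for Igf1r, -0.088 to 0.14 for Insr, -0.42 to 0.045 for Tgfbr1 and -0.095 to 0.018 for Tgfbr2.

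Over the 6 receptors with a mean count of at least 1000 the median NTR at 120 min was 40.9% and the median half-life 167 min, in place of 47.1% and 131 min. The half-life was 202 min from 60 min, 162 min from 90 min and 110 min from the line over 30 to 120 min. The median old RNA at 120 min, 50.7% of that at 15 min, was 47.9 to 54.0% without 1 library. Apart from settings whose construction gives the reason, the cause of these changes was not tested. Depth limits Egfr most, with 101 to 187 counts per library.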
